A study of Mus musculus with 199 samples.

Results

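The collagen gene family was followed across whole-tissue RNA sequencing libraries from a mouse model of hepatocellular carcinoma on steatohepatitis. Its members were the genes of the count table whose symbol, looked up by Ensembl identifier, has the form of a collagen alpha chain (Col, a type number, the letter a and a chain number). This gave 44 of the 37713 genes in the table. Large tumours gave 25 libraries, small tumours 25 and liver tissue 15, out of 199 libraries in the series. All came from male wild-type C57BL/6 mice of an in-house colony. No age is given in the labels. The tumours carry the treatment label DEN ALIOS, which stands for diethylnitrosamine, a liver carcinogen, given with a fatty, sugary diet. The liver tissue has DEN ALIOS in its title but Normal as its treatment, and the protocol speaks of healthy tissue, so whether these mice also had the carcinogen and the diet cannot be settled from the labels. The labels name no animal, so libraries may come from the same mouse, and the p-values below measure sample-to-sample spread. What separates a large from a small tumour is not given either.

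Collagens are the main proteins of the extracellular matrix, each a triple helix wound from 3 alpha chains. Fibrillar collagens such as types I and III form the fibres of scar tissue, type IV forms the sheet-like network of basement membranes, and other types decorate fibrils, link cells to the matrix or sit in the cell membrane. In the liver the space between hepatocytes and sinusoids normally holds little of this matrix, and fibrosis is its build-up, made largely by stellate cells and fibroblasts that have turned into myofibroblasts.

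Gene counts ran from 12055434 to 21850190 per library, with a median of 15178619. Levels are in CPM, a library-size-scaled count, after adjustment by trimmed mean of M values (TMM). Differences are given on the log2 scale with the standard error after ±. They come from the quasi-likelihood test of edgeR, with the library code set as a term (3 sets, told apart by the start of the library code in the labels, which do not say what the sets are) and with p adjusted by the Benjamini-Hochberg method over 14538 tested genes. A gene was called, and is said to have risen or fallen, when this adjusted p was under 0.05. Of the 44 collagen genes 29 had enough counts to be tested and 15 had not. In bulk tissue fewer cells of a type and less RNA per cell cannot be told apart. The hepatocyte markers Alb, Apoa1, Ttr, Apob and Cps1 summed to between 113195 and 232997 CPM in large tumours, 107563 and 241561 CPM in small tumours and 49758 and 119711 CPM in liver tissue, so all 3 groups held abundant hepatocyte RNA. Most of the sum was Alb. Of the 5 markers 3 rose and 2 fell in large tumours against liver tissue, and 3 rose and 1 fell in small tumours, beside 70.5% and 65.7% of all genes called. Cps1 had medians of 1291, 1679 and 3118 CPM in large tumours, small tumours and liver tissue.

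In large tumours 19 of the 29 tested collagen genes rose against liver tissue, 4 fell and 6 were not called. Over all tested genes 70.5% were called in this comparison, 38.5% higher and 32.1% lower, so many calls were the rule here. The median log2 fold change was 1.03 over the 29 collagen genes and 0.05 over all genes. In small tumours 16 collagen genes rose, 3 fell and 10 were not called, beside 65.7% of all genes called, 34.7% higher and 31.0% lower. Here the median was 0.78 over the collagen genes and 0.03 over all genes. All 16 that rose in small tumours also rose in large tumours, and the same 3, Col5a3, Col23a1 and Col27a1, fell in both. Both comparisons use the same liver libraries. No tested collagen gene lay wholly below liver tissue in large tumours (2.21% of all genes did) or wholly above or below it in small tumours (0.585% and 0.523%).

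**Figure D1:**
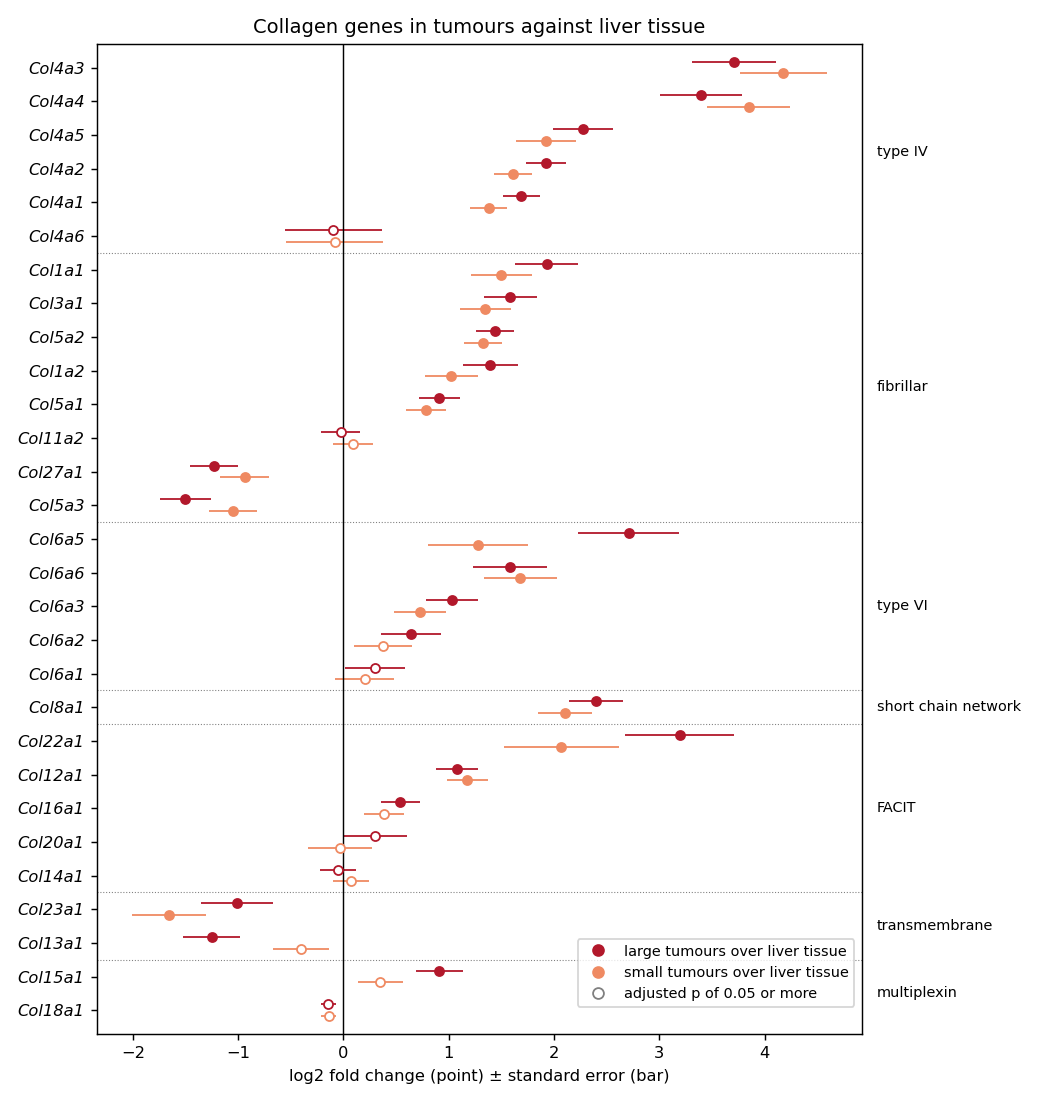
Log2 fold change (horizontal axis) of the 29 tested collagen genes (vertical axis, by structural class) in large tumours (dark red) and small tumours (orange) over liver tissue, with standard errors as bars and open points where the adjusted p was 0.05 or more. Col4a3 (3.71 in large and 4.18 in small tumours) and Col4a4 lie farthest to the right, Col5a3, Col27a1, Col13a1 and Col23a1 to the left, and Col18a1 near 0 with the shortest bars.

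Among single collagen genes the highest log2 fold changes were those of Col4a3 and Col4a4, chains of basement membrane collagen, in both comparisons. Type IV has 6 chains that assemble into set trimers: alpha 1 with alpha 2 in nearly all basement membranes, alpha 3 with alpha 4 and alpha 5 in kidney glomerulus, lung and a few other sites, and alpha 5 with alpha 6 elsewhere. Of the 6 genes 5 rose in large and in small tumours and Col4a6 was not called in either. Col4a3 (ENSMUSG00000079465, chromosome 1, 82586921 to 82722059 of GRCm38) had 10.5, 38.5 and 111 CPM as its lowest, median and highest level in large tumours. In small tumours these levels were 2.47, 49.5 and 135 CPM, and in liver tissue 0.32, 1.17 and 13.7 CPM. Of the large tumours 24 of 25 stood above the highest liver library, as did 22 of 25 small tumours. The liver libraries were uneven, with replicates 11 (13.7 CPM) and 13 (10.5 CPM) far above the liver median. The log2 fold change was 3.71 ± 0.40 in large tumours (edgeR adjusted p = 2.76e-12) and 4.18 ± 0.41 in small tumours (adjusted p = 2.59e-13).

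Col4a4 (chromosome 1, 82448423 to 82586849) starts head to head with Col4a3 on the opposite strand. Its lowest, median and highest levels were 2.29, 7.27 and 23.1 CPM in large tumours, 0.81, 8.45 and 31.2 CPM in small tumours and 0, 0.59 and 1.98 CPM in liver tissue. Large tumours and liver tissue did not overlap, which held for 1.97% of all tested genes in this direction, and 22 of 25 small tumours stood above every liver library. The fold change was 3.39 ± 0.39 in large and 3.85 ± 0.39 in small tumours (edgeR adjusted p = 1.91e-11 and 7.24e-13). Only 71 bases separate the annotated starts of the pair. They are shown because these neighbours rose most among the collagens, and because a region this short lies upstream of both genes (RefSeq sequence, build GRCm38.p6, chr1:82586850-82586920, minus strand, which is the strand of Col4a4). None of the motifs named next was found in it, so no letter is in capitals.
Col4a4 to Col4a3: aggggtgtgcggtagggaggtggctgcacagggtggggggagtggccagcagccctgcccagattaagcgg

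Promoter letters were searched in the 250 bases before the RefSeq start of the 35 collagen genes with an entry, 38 windows in all. All motifs were read on both strands. The CCAAT box, spelled CCAAT, was in 34.2% of collagen windows and in 33.8% of all 32817 windows of the same length. The GC box bound by Sp1, spelled GGGCGG, was in 57.9% of collagen windows and in 32.7% of all windows. For the TATA box, spelled TATAAA, the shares were 13.2% and 12.4%. For the AP-1 site, spelled TGANTCA with N for any base, they were 2.63% and 6.75%. A match is a description of the letters and says nothing about binding. Windows that overlap an annotated exon are not printed.

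Col4a5 and Col4a6 form the same kind of neighbour pair on the X chromosome (141475385 to 141689234 on the plus strand and 141165403 to 141474076 on the minus strand), but they did not behave alike. Col4a5 had 3.73, 16.3 and 44.8 CPM as lowest, median and highest in large tumours, 2.14, 15.0 and 24.9 CPM in small tumours and 2.20, 2.91 and 6.30 CPM in liver tissue. It was above every liver library in 23 large and 20 small tumours, and rose by 2.27 ± 0.29 and 1.92 ± 0.28 (edgeR adjusted p = 2.72e-10 and 2.51e-08). Col4a6 had medians of 0.25, 0.36 and 0.50 CPM in large tumours, small tumours and liver tissue, and 4 large and 3 small tumours held no count of it. Its fold changes were -0.10 ± 0.46 and -0.08 ± 0.46, with 95% intervals of -1.0 to 0.81 and -0.98 to 0.82 (adjusted p = 0.860 and 0.884). Changes within those bounds are not excluded.

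The common chains rose as well, from a high base. Col4a1 had 82.9, 216 and 582 CPM in large tumours, 77.1, 175 and 563 CPM in small tumours and 32.5, 82.0 and 114 CPM in liver tissue. Col4a2 had 54.7, 141 and 404 CPM in large tumours, 55.0, 111 and 399 CPM in small tumours and 20.4, 45.2 and 70.0 CPM in liver tissue. For Col4a2 24 large and 22 small tumours were above the highest liver library. Col4a1 rose by 1.69 ± 0.18 and 1.38 ± 0.17, and Col4a2 by 1.93 ± 0.19 and 1.61 ± 0.18 in large and in small tumours (edgeR adjusted p between 9.53e-14 and 3.75e-10). Their annotated starts on chromosome 8 overlap by 22 bases on opposite strands, and whether the counting used strand is not known here. Reads in that overlap cannot be assigned with certainty.

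The balance between type IV chains shifted. Per kilobase of exon, the median ratio of Col4a3 to Col4a1 was 0.133 in large tumours (0.027 to 0.423), 0.211 in small tumours (0.012 to 1.11) and 0.00897 in liver tissue (0.00299 to 0.314). Col4a3 was below Col4a1 at the median of each group, and in 1 small tumour, replicate 19, it was slightly above (a ratio of 1.11). The ratio of Col4a1 to Col4a2 stayed narrow, with medians of 1.35, 1.36 and 1.60 in large tumours, small tumours and liver tissue.

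**Figure D2:**
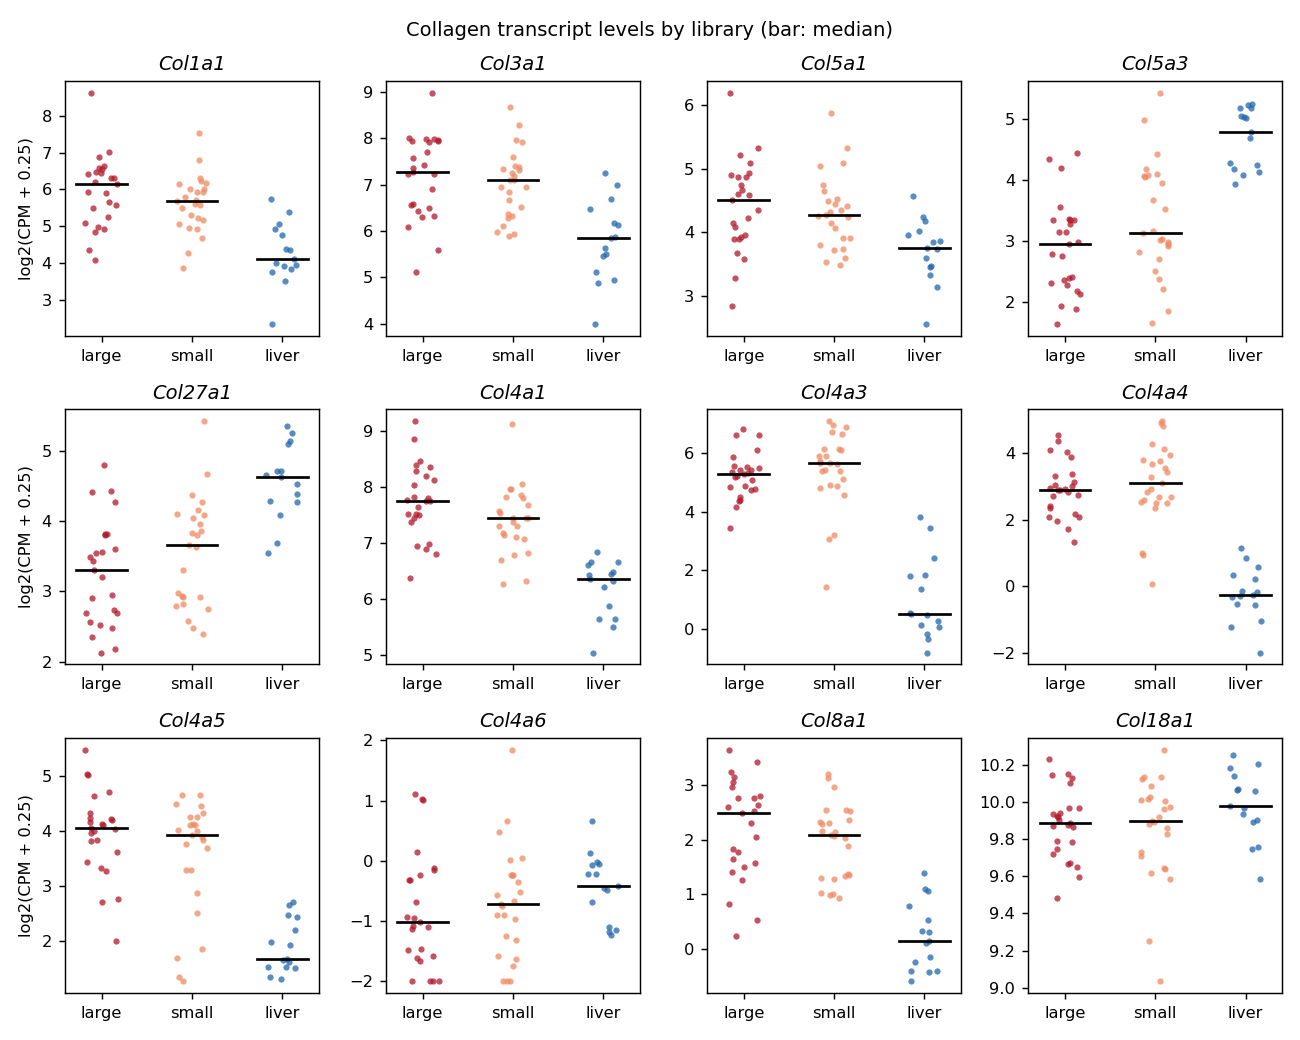
Levels of 12 collagen genes in each library as log2(CPM + 0.25) on the vertical axis, with large tumours, small tumours and liver tissue along the horizontal axis, 1 point per library and a bar at the median. Col4a4 does not overlap between large tumours and liver tissue, Col5a3 and Col27a1 sit lower in most tumours, and Col18a1 spans little more than 1 log2 unit over all libraries.

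Fibrillar collagens split into a rising and a falling set. Of 8 tested genes 5 rose and 2 fell in large and in small tumours, and Col11a2 was not called. Col1a1 (chromosome 11, 94936224 to 94953042), whose product with that of Col1a2 forms type I collagen, had 16.7, 70.7 and 395 CPM as lowest, median and highest in large tumours, 14.2, 51.5 and 186 CPM in small tumours and 4.80, 17.1 and 53.1 CPM in liver tissue. The groups overlapped: 15 large and 11 small tumours were above every liver library. The single highest values were large tumour replicate 8, small tumour replicate 14 and liver replicate 2. Col1a1 rose by 1.93 ± 0.30 and 1.5 ± 0.29 (edgeR adjusted p = 7.61e-08 and 8.01e-06).

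Col1a2 had 15.0, 75.9 and 306 CPM in large tumours, 19.4, 53.4 and 174 CPM in small tumours and 8.43, 26.0 and 65.3 CPM in liver tissue, and rose by 1.40 ± 0.26 and 1.03 ± 0.25 (edgeR adjusted p = 3.37e-06 and 0.000309). The median ratio of Col1a1 to Col1a2 per kilobase was 1.87 in large tumours, 1.83 in small tumours and 1.26 in liver tissue. Type I collagen protein is mostly made of 2 alpha 1 chains and 1 alpha 2 chain, but these RNA ratios depend on the exon lengths used. Those lengths join all annotated transcripts of a gene, 6563 bases for Col1a1 and 12426 for Col1a2. In plain CPM the Col1a1 median was below the Col1a2 median in each group. Col3a1, which forms the finer type III fibres, had 34.3, 155 and 509 CPM in large tumours, 59.4, 138 and 408 CPM in small tumours and 15.5, 57.5 and 152 CPM in liver tissue. It rose by 1.58 ± 0.25 and 1.35 ± 0.25 (edgeR adjusted p = 1.23e-07 and 2.78e-06), with 13 large and 10 small tumours above every liver library.

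Type V collagen starts fibrils and sets their width, and its 3 chains did not move together. Col5a1 had 6.87, 22.4 and 73.1 CPM in large tumours, 10.9, 19.1 and 58.7 CPM in small tumours and 5.59, 13.2 and 23.6 CPM in liver tissue, and rose by 0.91 ± 0.19 and 0.78 ± 0.19 (edgeR adjusted p = 3.41e-05 and 0.00028). Col5a2 had 8.82, 30.7 and 72.4 CPM in large tumours, 9.69, 29.6 and 58.6 CPM in small tumours and 5.45, 12.7 and 26.5 CPM in liver tissue, and rose by 1.44 ± 0.18 and 1.32 ± 0.18 (adjusted p = 3.51e-10 and 3.87e-09). Col5a3 (chromosome 9, 20770050 to 20815067) went the other way. It had 2.84, 7.44 and 21.4 CPM in large tumours, 2.88, 8.49 and 42.8 CPM in small tumours and 14.9, 27.2 and 37.7 CPM in liver tissue. Below every liver library lay 22 of 25 large and 16 of 25 small tumours, while small tumour replicate 1 was above all of liver tissue. Col5a3 fell by 1.5 ± 0.24 in large and by 1.05 ± 0.23 in small tumours on the log2 scale (edgeR adjusted p = 1.16e-07 and 7.48e-05). Its median ratio to Col5a1 per kilobase was 0.371 in large tumours, 0.616 in small tumours and 2.52 in liver tissue, so the more abundant of these chains was Col5a1 at the tumour medians and Col5a3 at the liver median.

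Col27a1 (chromosome 4, 63214004 to 63334991), a fibrillar collagen best known from cartilage, fell as well. It had 4.11, 9.60 and 27.5 CPM in large tumours, 5.01, 12.4 and 42.7 CPM in small tumours and 11.5, 24.4 and 40.4 CPM in liver tissue, and 16 large and 11 small tumours lay below every liver library. The fold changes were -1.23 ± 0.23 and -0.94 ± 0.23 (edgeR adjusted p = 3.89e-06 and 0.000328). Col11a2 averaged 1.2 ± 0.55 CPM in large tumours, 1.26 ± 0.60 CPM in small tumours and 1.23 ± 0.38 CPM in liver tissue (SD, n = 25, 25 and 15), with adjusted p of 0.907 and 0.679.

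The promoter windows of fibrillar genes that rose (Col3a1) and fell (Col5a3, Col27a1), and of the network collagen Col8a1 described next, are printed so that the letters around genes of opposite direction can be compared. They are RefSeq sequence of GRCm38.p6, read 5′ to 3′ on the strand of the gene, and capitals mark motif matches: a TATA box in Col3a1 (chr1:45311288-45311537, plus strand), a CCAAT box and 2 GC boxes in Col5a3 (chr9:20815068-20815317, minus strand), 1 GC box in Col27a1 (chr4:63215162-63215411, plus strand, where the RefSeq start lies inside the GENCODE gene) and 4 GC boxes in Col8a1 (chr16:57754738-57754987, minus strand). The GC boxes in Col5a3 and Col8a1 are read on the other strand, as CCGCCC. Other fibrillar genes that rose, with windows not printed, held GC boxes too, 2 in Col5a1 and 2 in Col1a2. The Col1a2 window also held 1 CCAAT box.
Col3a1: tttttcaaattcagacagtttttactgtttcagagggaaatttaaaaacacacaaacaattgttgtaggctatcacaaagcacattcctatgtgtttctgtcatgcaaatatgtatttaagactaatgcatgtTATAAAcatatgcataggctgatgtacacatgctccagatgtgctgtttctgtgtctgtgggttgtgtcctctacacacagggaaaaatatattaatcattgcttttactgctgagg
Col5a3: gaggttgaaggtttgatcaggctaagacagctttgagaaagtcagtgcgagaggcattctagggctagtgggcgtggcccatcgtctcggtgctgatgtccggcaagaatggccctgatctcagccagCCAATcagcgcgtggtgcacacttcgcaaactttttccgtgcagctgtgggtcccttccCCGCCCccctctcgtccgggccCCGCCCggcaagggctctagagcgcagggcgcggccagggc
Col27a1: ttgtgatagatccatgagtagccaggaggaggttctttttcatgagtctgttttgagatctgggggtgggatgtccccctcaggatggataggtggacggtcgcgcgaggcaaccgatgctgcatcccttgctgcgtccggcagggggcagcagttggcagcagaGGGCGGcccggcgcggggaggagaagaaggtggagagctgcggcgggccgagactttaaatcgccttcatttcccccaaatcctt
Col8a1: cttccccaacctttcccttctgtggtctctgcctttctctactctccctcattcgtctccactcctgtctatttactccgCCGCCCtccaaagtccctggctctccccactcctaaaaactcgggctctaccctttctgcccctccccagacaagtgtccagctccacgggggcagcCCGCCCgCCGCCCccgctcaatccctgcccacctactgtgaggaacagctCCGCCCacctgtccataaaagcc

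Col8a1 (chromosome 16, 57624258 to 57754737), a short chain network collagen of vessel walls and of the cornea, was low but rose clearly. Its lowest, median and highest levels were 0.94, 5.36 and 12.3 CPM in large tumours, 1.67, 4.01 and 8.96 CPM in small tumours and 0.42, 0.87 and 2.37 CPM in liver tissue. Above every liver library stood 21 large and 16 small tumours, and every tumour was above the liver median. The rise was 2.40 ± 0.26 in large and 2.1 ± 0.26 in small tumours (edgeR adjusted p = 1.70e-12 and 1.44e-10).

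Type VI collagen forms beaded filaments near cells, from alpha 1 and alpha 2 chains with alpha 3 or 1 of its relatives. Here the relatives moved more than the common chains. Col6a1 had 4.05, 10.6 and 54.6 CPM in large tumours, 4.18, 9.99 and 88.8 CPM in small tumours and 5.52, 10.8 and 22.4 CPM in liver tissue, and was not called (0.30 ± 0.29 and 0.20 ± 0.28, edgeR adjusted p = 0.351 and 0.536). Col6a2 had 3.33, 11.8 and 43.5 CPM in large tumours, 3.03, 8.79 and 62.1 CPM in small tumours and 3.05, 7.54 and 17.2 CPM in liver tissue. It rose in large tumours only just past the threshold (0.64 ± 0.28, adjusted p = 0.0377), and had 0.37 ± 0.27 in small tumours (adjusted p = 0.226). The call in large tumours ended when any of 10 single libraries was left out, as listed in the closing section. This call also ended with no filter (edgeR adjusted p = 0.0676), no code set term (0.108), a replicate block (0.159) or a minimum fold of 1.5 (0.622). The same held without code set 2 (0.113), without code set 3 (0.225) and without the 4 libraries rich in S100a8 (0.0601). Col6a3 had 7.95, 33.0 and 78.5 CPM in large tumours, 8.64, 24.5 and 83.4 CPM in small tumours and 7.63, 15.3 and 40.6 CPM in liver tissue, and rose by 1.03 ± 0.25 and 0.73 ± 0.24 (edgeR adjusted p = 0.000212 and 0.0074). The call in small tumours ended without code set 2 (0.51, adjusted p = 0.112).

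The minor chains Col6a5 and Col6a6 lie beside each other on chromosome 9. Col6a5 (105856078 to 105960643) had 0.15, 1.97 and 12.6 CPM in large tumours, 0.13, 0.66 and 6.44 CPM in small tumours and 0, 0.50 and 1.33 CPM in liver tissue. It was above every liver library in 13 large and 8 small tumours, with the rest inside the liver range. Col6a5 rose by 2.71 ± 0.48 in large and by 1.28 ± 0.48 in small tumours (edgeR adjusted p = 1.12e-06 and 0.0161). The call in small tumours ended without code set 1 (0.99, adjusted p = 0.186), without code set 2 (1.18, adjusted p = 0.060) and when the 4 libraries rich in S100a8 were left out (1.07, adjusted p = 0.0714). Col6a6 had 0.15, 2.74 and 9.24 CPM in large tumours, 0.49, 3.02 and 8.67 CPM in small tumours and 0.25, 1.15 and 1.74 CPM in liver tissue. It rose by 1.58 ± 0.35 and 1.68 ± 0.35 (edgeR adjusted p = 6.56e-05 and 2.48e-05), with 19 tumours of each size above every liver library.

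The fibril-associated collagens with interrupted helices (FACIT) bind to fibrils made of other types. Of 5 tested genes 3 rose in large and 2 in small tumours. Col12a1 had 4.31, 7.13 and 20.4 CPM in large tumours, 3.79, 7.52 and 43.6 CPM in small tumours and 1.64, 4.33 and 7.71 CPM in liver tissue, and rose by 1.08 ± 0.20 and 1.17 ± 0.20 (edgeR adjusted p = 2.4e-06 and 4.35e-07). Col22a1, known from junctions of muscle and tendon, rose by 3.19 ± 0.52 and 2.07 ± 0.55 (edgeR adjusted p = 2.09e-07 and 0.000728), but averaged only 0.97 ± 1.11 CPM in large tumours, 0.38 ± 0.34 CPM in small tumours and 0.104 ± 0.073 CPM in liver tissue (SD, n = 25, 25 and 15). Some libraries of each group held no count of it: 1 of 25 large tumours, 2 of 25 small tumours and 3 of 15 liver libraries. Col16a1 had 2.98, 7.21 and 22.4 CPM in large tumours, 3.39, 6.61 and 16.8 CPM in small tumours and 3.41, 5.39 and 10.4 CPM in liver tissue. It rose by 0.54 ± 0.19 in large tumours (edgeR adjusted p = 0.00869) and had 0.39 ± 0.19 in small tumours (adjusted p = 0.0635). Without code set 1 its value in large tumours was 0.38 and no longer called (edgeR adjusted p = 0.124). This call also ended with no code set term (0.0844), a replicate block (0.0662) or a minimum fold of 1.5 (0.945). In small tumours Col16a1 passed with only the 2 groups (0.38, edgeR adjusted p = 0.0402) and in some fits that left out 1 library.

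Col14a1 (chromosome 15, 55307750 to 55520803), the FACIT collagen with the highest level, was not called in either comparison, unlike the chains of types I and III. Whether it varied with those chains from library to library was not tested. Its lowest, median and highest levels were 23.9, 97.6 and 173 CPM in large tumours, 55.3, 106 and 233 CPM in small tumours and 46.4, 112 and 175 CPM in liver tissue. The fold changes were -0.05 ± 0.17 (95% interval -0.39 to 0.28) and 0.07 ± 0.17 (-0.26 to 0.40), with edgeR adjusted p of 0.796 and 0.737. Col20a1 was not called either, at 0.30 ± 0.30 and -0.03 ± 0.30 (adjusted p = 0.371 and 0.938).

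Of the transmembrane collagens, all at low levels, both tested genes fell in large tumours, and Col23a1 but not Col13a1 was called in small tumours. Col23a1 averaged 0.634 ± 1.2 CPM in large tumours, 0.392 ± 0.254 CPM in small tumours and 1.12 ± 0.37 CPM in liver tissue (SD, n = 25, 25 and 15), and 15 tumours of each size lay below every liver library. It fell by 1.01 ± 0.34 in large and by 1.66 ± 0.35 in small tumours on the log2 scale (edgeR adjusted p = 0.00708 and 3.75e-05). Large tumour replicate 20, at 6.18 CPM, stood above all liver libraries, and without it the value in large tumours was -1.47. Without code set 2 the call in large tumours ended (-0.44, adjusted p = 0.439). Col13a1, a membrane collagen known from the neuromuscular junction, averaged 0.975 ± 0.687 CPM in large tumours, 1.73 ± 0.91 CPM in small tumours and 2.25 ± 1.11 CPM in liver tissue. It fell by 1.25 ± 0.27 in large tumours (edgeR adjusted p = 3.61e-05) and had -0.40 ± 0.27 in small tumours (adjusted p = 0.180).

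The multiplexins Col15a1 and Col18a1 belong to basement membrane zones, and Col18a1 is the source of the fragment endostatin and is made by hepatocytes. Col18a1 (chromosome 10, 77052178 to 77166548) was by far the most counted collagen in every group. It had 715, 947 and 1201 CPM in large tumours, 524, 953 and 1244 CPM in small tumours and 769, 1007 and 1221 CPM in liver tissue. The groups overlapped almost wholly, and the fold changes were -0.14 ± 0.07 in both comparisons (95% intervals -0.28 to -0.00 and -0.28 to 0.00, edgeR adjusted p = 0.0653 and 0.0796). This small difference passed the threshold under several other settings, given in the closing section. Col15a1 had 8.73, 26.5 and 60.1 CPM in large tumours, 7.48, 16.8 and 66.9 CPM in small tumours and 11.6, 15.4 and 25.7 CPM in liver tissue. Its rise of 0.91 ± 0.22 passed in large tumours (edgeR adjusted p = 0.000224), with 14 tumours above and 2 below the liver range. The value in small tumours was 0.35 ± 0.22 (adjusted p = 0.149), with 4 tumours above and 6 below.

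The 15 genes that were not tested were Col2a1, Col6a4, Col7a1, Col8a2, Col9a1, Col9a2, Col9a3, Col10a1, Col11a1, Col17a1, Col19a1, Col24a1, Col25a1, Col26a1 and Col28a1. They include the chains of the cartilage types II, IX and X, and 4 of them had under 5 counts over all 65 libraries. The highest level of any of them in a single library was 1.54 CPM, for Col9a3 in a small tumour. Col25a1, a transmembrane collagen, had medians of 0.121 CPM in large tumours, 0.0752 CPM in small tumours and 0.567 CPM in liver tissue. Of the large tumours 19 and of the small tumours 20 lay below every liver library. Col17a1, a membrane collagen of epithelial hemidesmosomes, had medians of 0.162, 0.221 and 0.0621 CPM in large tumours, small tumours and liver tissue, and 10 large and 13 small tumours were above every liver library.

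**Figure D3:**
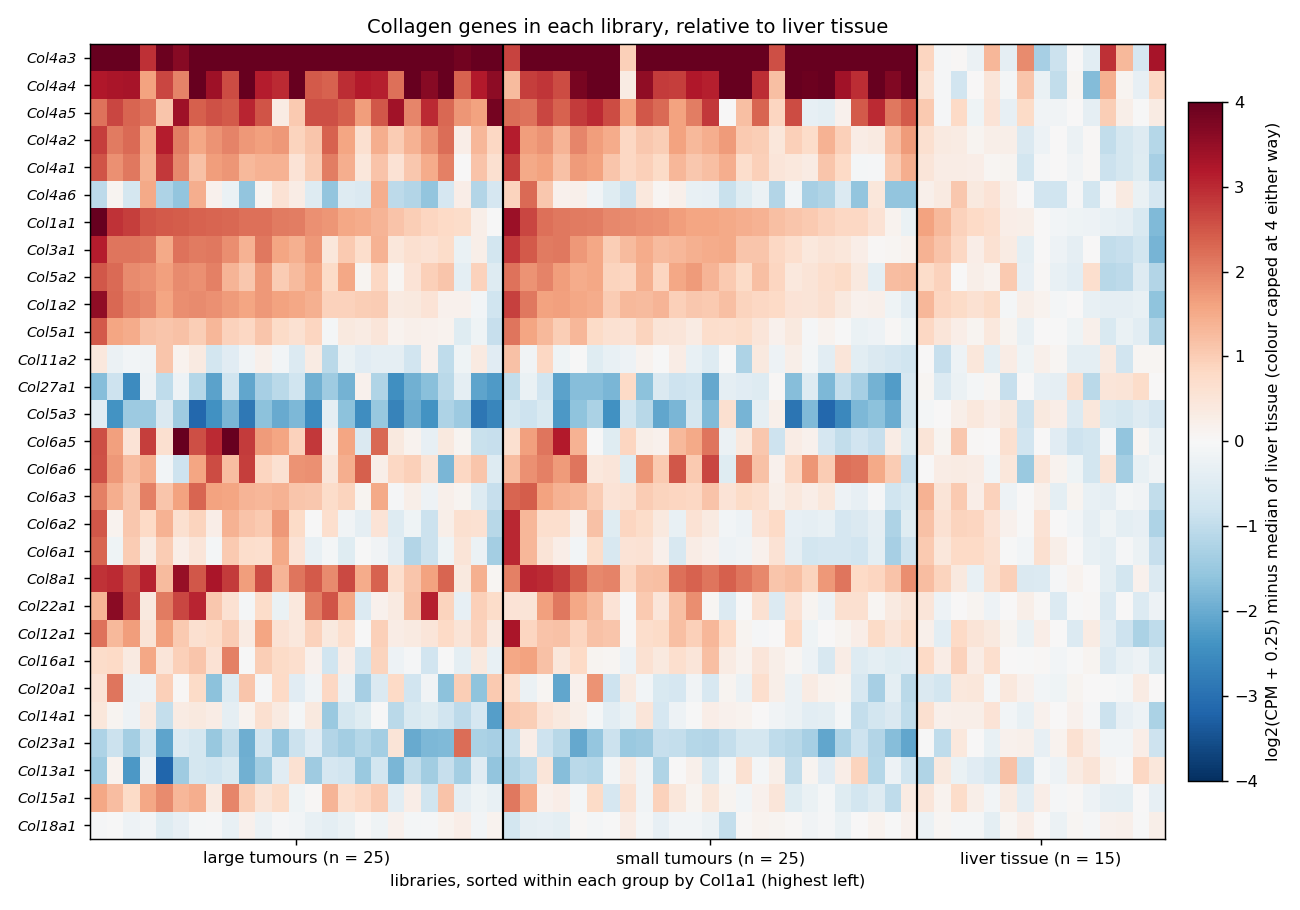
Each column is a library and each row a tested collagen gene, coloured by log2(CPM + 0.25) minus the median of liver tissue (red above, blue below, colour capped at 4 in either direction), with libraries sorted within each group by Col1a1. Col1a2, Col3a1 and Col5a1 fade from left to right with Col1a1. Col4a3 and Col4a4 are above the liver median in every tumour, and their relation to Col1a1 was not tested.

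Ranking by level per kilobase of exon showed which chains dominated. Col18a1 came first in every group, with medians of 135 CPM per kilobase in large tumours, 136 in small tumours and 143 in liver tissue. In large tumours Col4a1 (29.0 CPM per kilobase), Col4a2 (21.4), Col3a1 (15.8), Col14a1 (13.9) and Col1a1 (10.8) followed. In small tumours the order was Col4a1 (23.4), Col4a2 (16.7), Col14a1 (15.1), Col3a1 (14.0) and Col1a1 (7.84), and in liver tissue Col14a1 (16.0), Col4a1 (11.0), Col4a2 (6.82), Col3a1 (5.85) and Col5a3 (4.00). Col4a3 ranked 9 of 44 in large tumours, 7 in small tumours and 24 in liver tissue. Neighbours in these orders overlapped in their ranges over libraries, except that Col18a1 stood clear of the next gene in large tumours and in liver tissue. In small tumours its lowest library (74.7 CPM per kilobase) lay just under the highest of Col4a1 (75.5).

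As a share of all collagen counts in a library, Col18a1 had a median of 47.2% in large tumours (26.9% to 72.1%), 52.0% in small tumours (19.6% to 67.2%) and 66.6% in liver tissue (50.03% to 82.8%). Type IV held 22.0% in large tumours, 18.8% in small tumours and 9.16% in liver tissue. Fibrillar types held 18.4%, 17.9% and 12.3%, and FACIT collagens 5.43%, 6.58% and 8.35% in the same order. Without Col18a1 the collagen genes summed to a median of 1058 CPM in large tumours (464 to 2630), 852 CPM in small tumours (503 to 2508) and 485 CPM in liver tissue (244 to 864). These shares describe the libraries and carry no test.

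**Figure D4:**
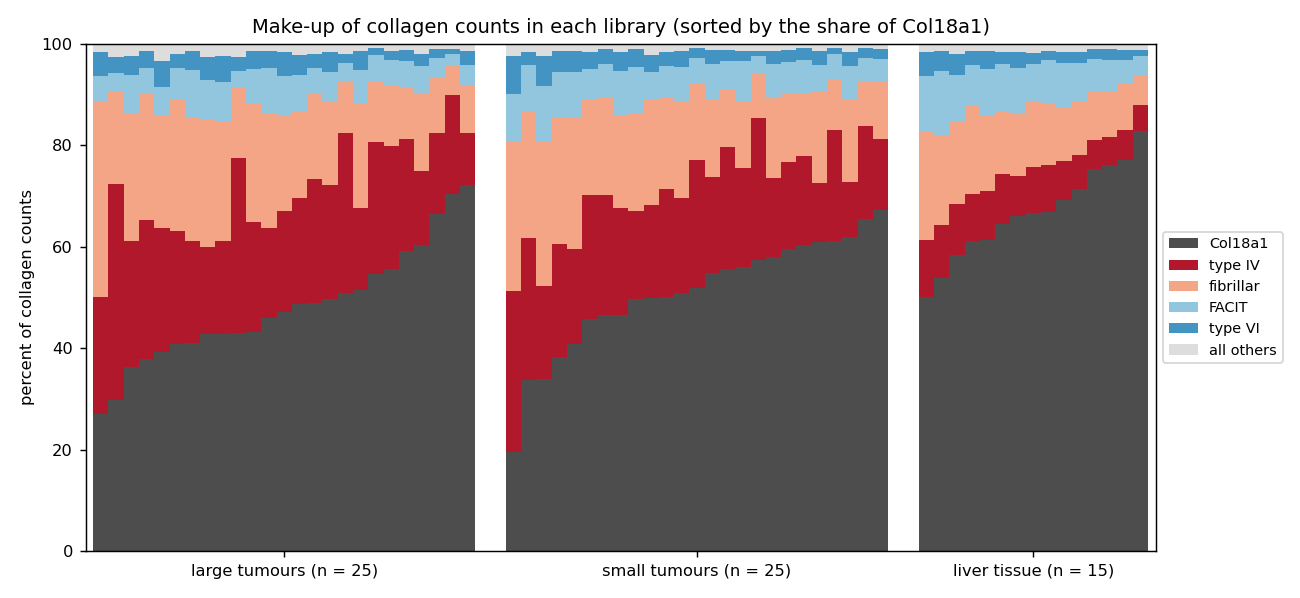
Percent of a library's collagen counts (vertical axis) held by Col18a1, type IV, fibrillar, FACIT, type VI and all other collagen genes, 1 bar per library, sorted within large tumours, small tumours and liver tissue by the share of Col18a1. The Col18a1 share has medians of 47.2%, 52.0% and 66.6%, and the type IV band is wider in tumours than in liver tissue.

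Between large and small tumours few collagen genes differed. Of 29 tested genes 1 was higher and 1 lower in large tumours, beside 2.48% of all genes called (0.929% higher and 1.55% lower), and 7 had an unadjusted p under 0.05. DESeq2 also called 2, beside 3.92% of all genes. Col6a5, with the levels given above, was higher by 1.43 ± 0.36 in large tumours (edgeR adjusted p = 0.0221). Its level was above the small tumour median in 18 of 25 large tumours, and within single code sets the value was 1.72, 0.91 and 1.69. Col13a1 had 0, 0.91 and 3.25 CPM as lowest, median and highest in large tumours and 0.45, 1.83 and 3.99 CPM in small tumours. Below the small tumour median lay 23 of 25 large tumours, and the difference was -0.85 ± 0.24 (adjusted p = 0.0419), with -0.39, -1.04 and -0.97 within code sets. Both rest on low counts. Col6a5 lost its call without large tumour replicate 5 (1.26, adjusted p = 0.0609), and Col13a1 without any of 23 single libraries (adjusted p up to 0.0773). Neither passed when code set 1 or code set 3 was left out or when the fit held only large and small tumours. In the other direction, leaving out small tumour replicate 14 raised the number called to 5, adding Col15a1 (0.73), Col4a1 (0.43) and Col4a2 (0.45). Leaving out large tumour replicate 20 raised it to 4, adding Col15a1 and Col22a1, and without large tumour replicate 11 or 16 or small tumour replicate 16 there was 1 addition each, Col15a1 or Col22a1.

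For the other genes the difference between tumour sizes was not called. Col4a3 and Col4a4 had -0.47 ± 0.28 (95% interval -1.03 to 0.09) and -0.46 ± 0.27 (-0.98 to 0.07), and Col1a1 and Col3a1 had 0.43 ± 0.24 (-0.04 to 0.90) and 0.24 ± 0.20 (-0.16 to 0.64). Col15a1 had 0.56 ± 0.18 (0.20 to 0.92, edgeR adjusted p = 0.0787) and Col22a1 1.12 ± 0.37 (0.39 to 1.85, adjusted p = 0.0811). Col6a2, Col13a1, Col15a1 and Col16a1 were called against liver tissue in large but not in small tumours. Of these Col13a1 passed the test between the sizes themselves.

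Chains of the same trimer, and of different collagen types, were compared across the 50 tumours, on log2 CPM with the means of tumour size and code set removed, in 12 pairs. Permutation tests of 100000 draws were two-sided, with 1e-05 the smallest p they can give, and p was adjusted over the 12 pairs. Col1a1 followed Col1a2 with Pearson r of 0.985 and Spearman rho of 0.975 (n = 50, adjusted p = 1.5e-05 and 1.7e-05), and r was 0.982 without the 2 tumours farthest from the median of Col1a1. Col1a1 also followed Col3a1 (r = 0.949, rho = 0.938, 0.943 without 2) and Col5a1 (r = 0.943, rho = 0.928, 0.935 without 2), each with the same adjusted p. Col4a1 followed Col4a2 (r = 0.981, rho = 0.972, 0.975 without 2) and Col4a3 followed Col4a4 (r = 0.960, rho = 0.950, 0.952 without 2), again with that p. For Col6a1 r was 0.961 with Col6a2 (rho = 0.937, 0.943 without 2) and 0.707 with Col6a3 (rho = 0.672, 0.670 without 2). Within single code sets the r of these 7 pairs ran from 0.699 to 0.994.

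Col4a5 and Col4a6 were the pair of chain partners that did not pass, with r of 0.058 and rho of 0.045 (adjusted p = 0.700 and 0.760), -0.023 without 2 tumours and 0.312, -0.023 and -0.044 within code sets 1, 2 and 3. The pooled value joins opposite signs: r was -0.367 in large tumours alone and 0.369 in small tumours alone (permutation p = 0.116 and 0.055, adjusted 0.127 and 0.062). The low counts of Col4a6 limit this pair. Between types, Col1a1 was related to Col4a1 with r of 0.593 (rho = 0.628, 0.598 without 2, adjusted p = 0.00016 and 6e-05, 0.538 to 0.678 within code sets) and to Col15a1 with r of 0.641 (rho = 0.601, 0.667 without 2, adjusted p = 1.5e-05 and 8e-05, 0.656 to 0.669 within code sets). Col18a1 went weakly the other way, with r of -0.340 against Col1a1 (rho = -0.330, -0.343 without 2, adjusted p = 0.029 and 0.034) and -0.349 against Col15a1 (rho = -0.293, -0.274 without 2, adjusted p = 0.022 and 0.047). Within code sets 1, 2 and 3 r was -0.205, -0.515 and -0.250 for the first and -0.120, -0.535 and -0.403 for the second. Neither relation passed in either tumour size alone. In large and small tumours r was -0.253 and -0.441 against Col1a1 (permutation adjusted p = 0.271 and 0.062). Against Col15a1 it was -0.399 and -0.345 (permutation adjusted p = 0.074 and 0.127). These 2 relations depend on the scaling: on CPM of gene totals they were -0.029 and 0.025 (adjusted p = 0.864 each).

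**Figure D5:**
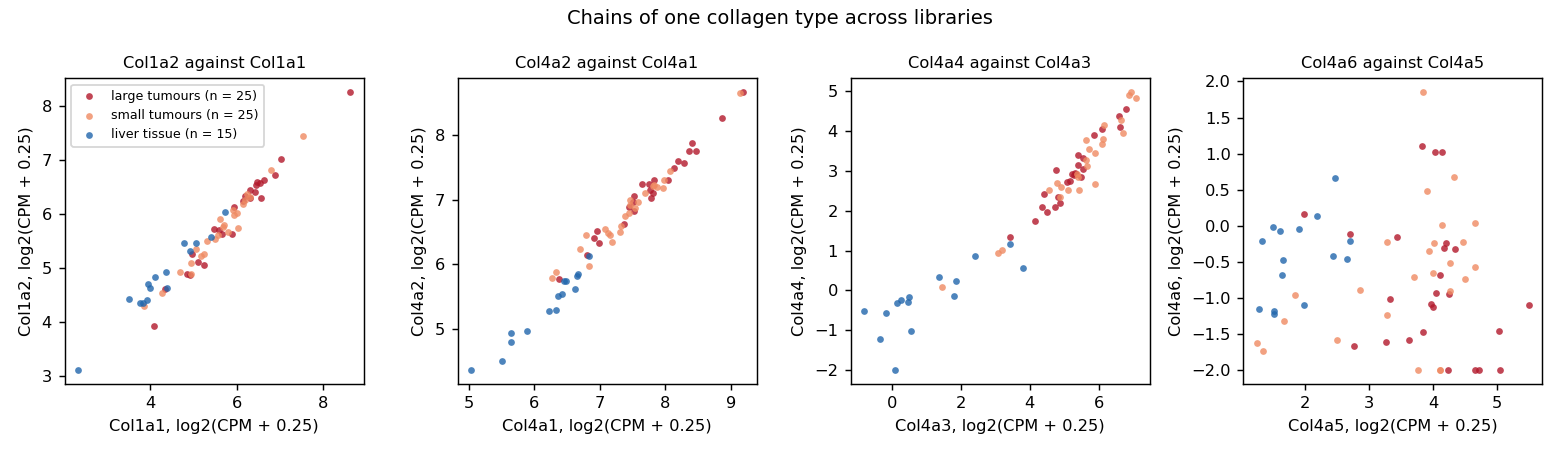
Level of a second chain (vertical axis) against a first (horizontal axis) as log2(CPM + 0.25), 1 point per library, with large tumours in dark red, small tumours in orange and liver tissue in blue. Col1a2 with Col1a1, Col4a2 with Col4a1 and Col4a4 with Col4a3 lie along narrow bands (r of 0.985, 0.981 and 0.960 over tumours), whereas Col4a6 with Col4a5 forms a cloud (r of 0.058).

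Genes that make, cut, cross-link and sense collagen were followed in lists. Their counts stand beside 70.5% of all tested genes called in large tumours (38.5% higher, 32.1% lower) and 65.7% in small tumours (34.7% higher, 31.0% lower), and a share near these is no result about a list. Of the hydroxylases, glycosyltransferases and chaperones that fold procollagen, 11 of 17 tested rose and 3 fell in large tumours, and the same counts held in small tumours (list median 0.35 and 0.31). P3h1, a prolyl 3-hydroxylase, averaged 41.7 ± 9.75 CPM in large tumours, 41.3 ± 9.65 CPM in small tumours and 18.3 ± 2.01 CPM in liver tissue, and rose by 1.22 ± 0.10 and 1.23 ± 0.10 (edgeR adjusted p = 3.31e-17 and 5.44e-17). Ppib, the cyclophilin of the same complex, rose by 1.09 ± 0.11 in both. Plod2, the lysyl hydroxylase of the chain ends, rose by 1.33 ± 0.27 in large tumours and P3h4 by 0.92 ± 0.20 in small tumours.

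Of 5 tested genes of procollagen processing 3 rose and 1 fell in large tumours, and 3 rose and 2 fell in small tumours. Adamts14, a procollagen N-proteinase, averaged 24.9 ± 18.0 CPM in large tumours, 18.3 ± 10.9 CPM in small tumours and 2.49 ± 1.46 CPM in liver tissue, and rose by 3.39 ± 0.35 and 2.94 ± 0.34 (edgeR adjusted p = 4.63e-13 and 3.15e-11). Its relative Adamts2 rose by 0.59 ± 0.20 and 0.55 ± 0.20, and Pcolce2, an enhancer of C-proteinase, fell by 1.81 ± 0.22 and by 0.96 ± 0.22 on the log2 scale. Pcolce2 was also lower in large than in small tumours (-0.85 ± 0.20, adjusted p = 0.0162). Of the 5 lysyl oxidases, which cross-link fibrils, 3 rose and none fell in either comparison: Loxl4 by 2.85 ± 0.28 and 2.69 ± 0.27, Lox by 1.49 ± 0.33 and 1.53 ± 0.32 and Loxl2 by 1.37 ± 0.25 and 1.18 ± 0.24 (edgeR adjusted p between 8.17e-14 and 6.26e-05).

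Of 10 tested genes of collagen breakdown and its inhibitors 6 rose and 1 fell in large tumours, and 5 rose and 2 fell in small tumours. The collagenase Mmp13 rose by 1.98 ± 0.35 and 1.75 ± 0.34, the protease inhibitor Timp1 by 1.97 ± 0.32 and 1.58 ± 0.32 and the elastase Mmp12 by 1.43 ± 0.31 and 1.28 ± 0.30. Mmp14, a membrane collagenase, was higher in large than in small tumours (0.23 ± 0.07, edgeR adjusted p = 0.0393). Of 9 tested collagen receptors 7 rose and 1 fell in large tumours, and 6 rose and none fell in small tumours. Itga2, the integrin chain for type I collagen, averaged 4.41 ± 3.15 CPM in large tumours, 3.75 ± 2.49 CPM in small tumours and 0.243 ± 0.170 CPM in liver tissue, and rose by 4.24 ± 0.43 and 4.05 ± 0.42 (edgeR adjusted p = 2.06e-13 and 1.44e-12). The receptor kinase Ddr1 rose by 2.97 ± 0.23 and 2.44 ± 0.22, and Itga11, an integrin chain of fibroblasts, by 1.93 ± 0.23 and 1.64 ± 0.24.

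Of 8 tested small leucine-rich proteoglycans, which coat fibrils, 4 fell and none rose in large tumours, and 3 fell and 1 rose in small tumours (list medians -0.53 and -0.12), beside 32.1% and 31.0% of all genes lower. Omd fell by 3.43 ± 0.40 and by 1.99 ± 0.38, and Podn by 1.11 ± 0.24 and by 0.81 ± 0.23 on the log2 scale. Ogn fell by 1.08 ± 0.34 in large tumours, and Fmod rose by 0.91 ± 0.36 in small tumours. Of 11 genes of profibrotic signals 9 rose in large and 8 in small tumours and none fell. Tgfb2, a transforming growth factor beta ligand, rose by 1.90 ± 0.22 and 1.86 ± 0.22 and the receptor Tgfbr2 by 1.34 ± 0.13 and 1.41 ± 0.13. Pdgfb was higher in large than in small tumours (0.59 ± 0.17, edgeR adjusted p = 0.0399).

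Markers of cells that could supply collagen, and of other cells in the tissue, were counted in the same way. The shares of all genes called, 70.5% in large and 65.7% in small tumours, apply here too. Of 12 stellate cell markers 2 rose and 7 fell in large tumours, and 2 rose and 6 fell in small tumours. Reln rose by 1.46 ± 0.26 and 1.42 ± 0.25, while Lhx2 fell by 1.59 ± 0.24 and by 1.22 ± 0.23, and Vipr1 fell by 1.5 ± 0.15 in large and Lrat by 1.06 ± 0.23 in small tumours. Their summed level was 126 to 586 CPM in large tumours, 167 to 673 CPM in small tumours and 196 to 407 CPM in liver tissue. Much of this sum came from 2 genes of opposite direction. In large tumours, small tumours and liver tissue Reln had medians of 126, 144 and 54.4 CPM, and Ecm1 had 47.5, 56.8 and 121 CPM. Of 9 markers of myofibroblasts and portal fibroblasts 6 rose and 1 fell in each comparison, with Cd34 at 2.60 ± 0.29 and 1.79 ± 0.28, Acta2 at 2.12 ± 0.27 and 2.29 ± 0.27 and Entpd2 at 2.00 ± 0.18 and 1.81 ± 0.18. Summed, they were 116 to 293 CPM in large tumours, 111 to 315 CPM in small tumours and 144 to 288 CPM in liver tissue. Gas6 was the largest part of this sum, with medians of 106, 96.2 and 155 CPM in that order, so the sum hides the rise of lower markers. Acta2, for example, had medians of 13.7, 19.3 and 3.26 CPM. Of 4 tested smooth muscle and pericyte markers 3 rose and none fell in each comparison, with sums of 41.0 to 217, 50.2 to 424 and 39.4 to 124 CPM in the same order of groups.

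Of 12 endothelial markers 5 rose and 3 fell in large tumours, and 6 rose and none fell in small tumours, called shares no higher than those of all genes, with sums of 253 to 775, 298 to 1104 and 276 to 577 CPM. Of 6 cholangiocyte markers 2 rose and none fell in each comparison, with sums of 6.90 to 503, 13.6 to 565 and 11.5 to 47.8 CPM, and most of that was Tspan8 (182 ± 135, 230 ± 150 and 8.61 ± 6.99 CPM as means ± SD). All 6 macrophage markers fell in each comparison. Of 3 tested mesothelial markers none was called in either comparison, and the summed level was 0.29 to 12.0, 1.60 to 14.9 and 2.07 to 7.73 CPM in large tumours, small tumours and liver tissue. Of 4 tested neutrophil markers 1 fell in large and 3 in small tumours and none rose. All 4 T cell markers rose in large and none was called in small tumours. Their sums were low, with medians of 3.30, 3.48 and 2.59 CPM in large tumours, small tumours and liver tissue. The highest libraries had 27.8, 15.1 and 11.1 CPM in the same order. The part of these cells in the collagen levels was not tested.

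All 3 groups were present in each of the 3 code sets, so the differences could be set out by code set. For Col4a3 the log2 difference within code sets 1, 2 and 3 was 4.41, 3.31 and 3.69 in large tumours and 4.86, 3.54 and 4.21 in small tumours. For Col1a1 it was 1.26, 2.56 and 2.00 in large and 0.95, 2.11 and 1.68 in small tumours, and for Col5a3 -1.99, -1.42 and -1.38 in large and -0.97, -0.78 and -1.41 in small tumours. A test of whether the tumour difference varied with code set called no collagen gene in either comparison (edgeR, lowest adjusted p = 0.357 in large and 0.452 in small tumours, 0.00688% and 0% of all genes called). At an unadjusted p under 0.05 it found 2 collagen genes in large and 4 in small tumours, Col4a1 and Col4a2 in both and Col12a1 and Col6a1 in small tumours. Of the 65 libraries 4 held over 10 CPM of the neutrophil gene S100a8, large tumour replicate 18 and liver replicates 4, 5 and 6, and leaving out these 4 gave 23 called collagen genes in large and 19 in small tumours.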

How the data were processed

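The deposited table holds unnormalised counts for 37713 Ensembl genes in 199 libraries, and the 65 of whole tissue were used. Per the labels' protocols, these were stranded mRNA libraries (TruSeq) read on a NextSeq 500. Per the submitters' processing notes, the tools were HTSeq 0.11.2 and HISAT2 2.1.0 on GRCm38, besides Trim Galore 0.6.4 and FastQC 0.11.8. The strand setting and the annotation release are not given in the sources used here. Summary entries that name no gene held 55.9% of the tissue entries and were left out. A median of 49.6% of entries had aligned to more than 1 place, so genes that resemble another gene may be under-counted.

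Symbols were matched by Ensembl identifier for 37607 genes, and exon lengths and coordinates came from GENCODE annotation of GRCm38. An exon length joins the exons of all annotated transcripts of a gene, so values per kilobase depend on that choice. Genes were kept by filterByExpr (at least 10 counts, total at least 15) and scaled by TMM, and robust quasi-likelihood fits of the 3 groups with code set as a term were made in edgeR 4.0.16 (R 4.3.3). Code sets are the 3 sets of library codes in the labels, with 5, 10 and 10 large tumours, 10, 5 and 10 small tumours and 6, 6 and 3 liver libraries. A standard error is the log2 fold change over the root of its F statistic. Correlations used log2 CPM with a prior count of 2. The members and gene lists were chosen with earlier results of these data known. Every collagen gene could be named, with its lowest, median and highest level where it was called and averaged at least 5 CPM or belonged to types I, III, IV, V or VI. Up to 3 called genes of each list with the largest change were named, or the 2 of lowest p if there was no call. They are printed in part, and 1 of them is not reported here. On simulated counts the edgeR step for large tumours against liver tissue recovered 93% of 2-fold and 99% of 4-fold changes, with 4.48% false among the calls. In that simulation 100 of 14451 genes were changed by each fold, all drawn above a minimum mean count. No code set differences were put in. The real comparison called 70.5% of genes, so these rates were not shown to hold for it or for the low collagen genes. No 2 libraries of a group agreed within sampling noise (lowest chi-square per degree of freedom 2.82 over 705 pairs). Where a library holds 0 counts of a gene, 3 counts is the limit, for counting error only. The alternatives tried were RLE factors, DESeq2 1.42.0, no filter, no code set term, a replicate block, each code set left out, only 2 groups, a minimum fold of 1.5, the S100a8 libraries left out, and each library left out, the last chosen after seeing the data. Figures were drawn with matplotlib 3.10.9.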

Additional observations from a re-analysis of the deposited data

Results flagged for a closer look

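The edgeR test of large against small tumours called 2 collagen genes, beside 2.48% of all tested genes. Col6a5 had a log2 difference of 2.71 in large and 1.28 in small tumours, and the gap between them was 1.43 ± 0.36 (adjusted p = 0.0221). Col13a1 had -1.25 in large and -0.40 in small tumours, a gap of -0.85 ± 0.24 (adjusted p = 0.0419). Both are low genes, with medians of 1.97 and 0.91 CPM in large tumours and 0.66 and 1.83 CPM in small tumours. Both calls ended with a replicate block, with no code set term or with only the 2 groups. They also ended without code set 1, without code set 3 or with a minimum fold of 1.5.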

How the results depend on the processing

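Against liver tissue the number of called collagen genes was 18 to 28 in large and 14 to 22 in small tumours over the planned settings, and no called gene changed direction. Leaving out 1 library gave 21 to 24 (17 to 19 higher, 4 to 5 lower) and 18 to 20 (15 to 17 higher, 3 to 4 lower). Without a filter 28 of 44 and 22 of 44 were called, 8 and 5 of them lower, since genes such as Col25a1 (-2.11 and -2.29) then entered the test. Over all genes 44.6% and 40.4% were then called. With a minimum fold of 1.5 there were 18 and 14 collagen genes, beside 22.5% and 17.7% of all genes, and under the other planned settings 57.1% to 71.0% and 54.7% to 67.7% of all genes were called. Between large and small tumours 0 were called with the replicate block (0.846% of all genes), without code set 1 (0.103%) or without code set 3 (1.09%). With only the 2 groups (0.273%) or a minimum fold of 1.5 (0.0138%) 0 were called as well. The main fit called 2.48% of all genes. Called were 1 higher and 0 lower with no filter (1.07% of all genes) and with no code set term (2.23%). The same held without code set 2 (0.514%) and without the S100a8 libraries (1.37%). With no code set term the gene called was Col22a1, not Col6a5. Leaving out 1 library gave 1 to 5 (0 to 4 higher, 0 to 1 lower). Without small tumour replicate 14 Col4a1, Col4a2 and Col15a1 were added, and without large tumour replicate 20 Col15a1 and Col22a1.

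Samples with equal replicate numbers in the titles were no more alike than others. The mean correlation was -0.045 over 55 pairs of equal number and 0.002 over others, and 1 of 65 libraries correlated best with its own number. The labels name no animal and no known pair was at hand to try this check on, so whether the numbers pair samples is not settled. With the number as a replicate block 21 collagen genes were called in large and 20 in small tumours against liver tissue. Col6a2 in large tumours lost its call without large replicates 5, 8 or 23, small replicates 5 or 7, or liver replicates 7, 9, 10, 11 or 12 (adjusted p up to 0.0849). Col18a1 passed with DESeq2 (-0.17 in large tumours, adjusted p = 0.0288, and -0.16 in small tumours, adjusted p = 0.0475), without code set 1 (adjusted p = 0.0287 and 0.0218), without the S100a8 libraries (0.0422 and 0.0499) and in 7 and 6 of the 65 fits that left out 1 library. It also passed with RLE (0.0359) and only the 2 groups (0.0108) in large tumours, and with the replicate block (0.0313) in small tumours. For Col15a1 with Col18a1 r turned from -0.349 to 0.025 on CPM of gene totals. The cause of these changes was not tested. Of 947 single-gene results under planned settings 897 kept direction and side of the threshold, 39 lost and 11 gained a call. Counts under about 1 CPM limit Col4a6, Col22a1, Col23a1, Col13a1 and the genes not tested.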
